A study of Mus musculus with 6 samples.

Results

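The genes described here are 10 neutrophil and marrow granule genes of the mouse: S100a8, S100a9, Ngp, Camp, Elane, Mpo, Prtn3, Mmp8, Mmp9 and Anxa1. They were taken as every probe set whose platform annotation names only that gene, which gave 12 of the 45101 probe sets of the table and 10 of its 18193 genes. Mmp9 and Anxa1 have 2 probe sets each and the other members 1, and 0 probe sets name a member together with another gene. The study measured RNA of the olfactory epithelium, the sheet of the nasal cavity that holds the odour-sensing neurons, on Affymetrix mouse 430 2.0 arrays. It set 3 samples from mice homozygous for OMP-GFP against 3 from heterozygous mice, to ask how olfactory marker protein affects gene expression. As background, the OMP-GFP allele puts green fluorescent protein in place of the Omp coding sequence, so all the mice carry at least 1 GFP allele and no wild-type group was compared. The labels used here do not state age, sex, strain or pooling of animals, so p-values measure only the spread between these samples, which may be technical.

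Neutrophils are short-lived white cells made in the bone marrow and loaded with granules in a fixed order as they mature. Mpo, Elane and Prtn3 fill the primary (azurophil) granules of the promyelocyte and are transcribed mostly at that early stage. Camp and Ngp belong to the secondary granules of later marrow stages, and Mmp8 and Mmp9 to the secondary and tertiary granules. S100a8 and S100a9 form calprotectin, the main cytosolic protein of the mature cell, and Anxa1 is a phospholipid-binding protein that is abundant in neutrophils and also in many epithelia. In a bulk tissue sample, fewer cells of a type and less RNA per cell cannot be told apart.

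Facts of the whole series come first, because some libraries stood apart. The median signal per array lay between 147.9 and 163.7. The library labelled heterozygous 1 read 26.3 at the Omp probe set 1422199_at, where heterozygous 2 and 3 read 4663.8 and 9143.0 and the homozygous arrays 5.7 to 31.3, so it goes against its label. The other Omp probe set, 1422200_at, read 7918.5 to 8774.4 on all 6 arrays and so does not tell the groups apart. The library labelled heterozygous 1 also read 7268.5 for the myelin gene Mbp, beside 655.2 to 1037.9 on the other arrays. Heterozygous 3 read 791.1 for the brain neuron gene Rbfox3, beside 49.5 to 184.2 elsewhere. Pmp22 of myelin followed Mbp, at 4898.6 beside 850.8 to 1205.6, as did Cnp, at 2309.7 beside 1340.7 to 1534.3. Heterozygous 3 was the highest array for 7 of the 9 brain genes measured, but not for the brightest, Eomes and Reln. Eomes read 205.2 in heterozygous 3 and 310.5 to 510.0 elsewhere, and Reln 560.9 and 432.4 to 586.6. Between the groups Eomes differed by 0.64 and Reln by -0.23, neither passing. Differences of the members are therefore given with and without these libraries. The tissue label was borne out by its markers on every array: Stoml3 of olfactory neurons read 15125.1 to 20030.7 and Cyp2g1 of sustentacular cells 17796.3 to 18562.0. Gng13, Gnal and Adcy3 of the neurons differed by 0.05, 0.18 and 0.19, and Cbr2, Sult1c1 and Muc2 of the sustentacular list by 0.03, 0.12 and 0.09, with 0 passing. Genes of bone, Ibsp at 12335.4 to 13714.3 and Dmp1 at 8663.4 to 12138.7, were also bright on every array, as were Col1a1 at 22948.6 to 24175.2 and Col1a2 at 26642.4 to 28777.7. Of 9 bone and cartilage genes measured 0 passed. With no overlap 3 were higher in homozygous arrays, beside 5.55% of all genes: Col1a2 by 0.07, Col10a1 by 0.38 and Cnmd by 0.34. The part of bone in the members' signals was not tested.

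The promoter sequences of 5 members are shown, because Ngp, Camp and Mpo read highest by a wide margin in a single array and S100a8 and S100a9 ordered the arrays nearly alike. Each is the 250 bases before the annotated start, 5′ to 3′ on the gene's strand, from RefSeq on GRCm38.p6, which held windows for 9 of the 10 members (Mmp9 had no entry). Capitals mark matches on either strand to TTNNGNAA, a loose form of the site of C/EBP factors, and to GAGGAA, the core of the site of PU.1. Both factors are known to drive granulocyte genes.
S100a8, chr3:90668821-90669070, plus strand: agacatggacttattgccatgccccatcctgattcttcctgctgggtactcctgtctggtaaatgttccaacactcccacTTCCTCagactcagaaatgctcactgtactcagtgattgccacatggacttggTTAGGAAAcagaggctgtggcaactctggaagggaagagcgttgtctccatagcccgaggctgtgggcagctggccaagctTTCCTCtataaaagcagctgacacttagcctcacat
S100a9, chr3:90695722-90695971, minus strand: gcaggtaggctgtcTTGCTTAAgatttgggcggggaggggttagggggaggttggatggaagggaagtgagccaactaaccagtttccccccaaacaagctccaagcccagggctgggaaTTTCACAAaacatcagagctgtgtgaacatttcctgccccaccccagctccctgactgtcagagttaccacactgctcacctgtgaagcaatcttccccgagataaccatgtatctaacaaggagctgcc
Ngp, chr9:110419558-110419807, plus strand: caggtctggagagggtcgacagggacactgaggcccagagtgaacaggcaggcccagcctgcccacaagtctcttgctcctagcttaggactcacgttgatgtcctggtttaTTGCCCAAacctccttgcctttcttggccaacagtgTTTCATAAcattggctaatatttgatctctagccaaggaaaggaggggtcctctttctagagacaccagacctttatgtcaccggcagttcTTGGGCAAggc
Camp, chr9:109849457-109849706, minus strand: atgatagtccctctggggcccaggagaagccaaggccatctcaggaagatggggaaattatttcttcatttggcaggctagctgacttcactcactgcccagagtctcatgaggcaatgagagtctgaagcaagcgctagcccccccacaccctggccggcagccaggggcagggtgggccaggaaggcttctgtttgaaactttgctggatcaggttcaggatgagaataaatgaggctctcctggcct
Mpo, chr11:87793534-87793783, plus strand: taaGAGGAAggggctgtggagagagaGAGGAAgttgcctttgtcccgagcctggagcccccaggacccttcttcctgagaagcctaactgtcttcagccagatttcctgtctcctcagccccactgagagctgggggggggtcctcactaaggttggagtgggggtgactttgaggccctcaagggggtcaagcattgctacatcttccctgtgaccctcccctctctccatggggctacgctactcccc
Within these 250 bases TTNNGNAA matched in 5 of the 9 member windows and in 36.8% of all 32851 promoter windows. GAGGAA matched in 6 of 9 and in 23.3% of all windows. The 2 motifs overlapped each other 0 times in the member windows. Ngp held 3 matches to TTNNGNAA and 0 to GAGGAA, Mpo 0 and 2, and Camp 0 of either. S100a9 held 2 matches to TTNNGNAA and 0 to GAGGAA, and S100a8 1 and 2. A link between these matches and the array patterns was not tested. A match is a description of the letters and not a measured binding site. S100a8 and S100a9 lie next to each other on chromosome 3, as Prtn3 and Elane do on chromosome 10. Ngp and Camp are both on chromosome 9 but are not adjacent.

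No member passed the test between the groups. Homozygous and heterozygous arrays were compared with limma on log2(signal + 38.8), over the 22514 probe sets whose mean lay at or above the median. A fold change on this scale understates the change of dim probe sets. Of the 22514, 0 passed a Benjamini-Hochberg adjusted p of 0.05, or 0%, and 1291, or 5.73%, had an unadjusted p under 0.05. The members' adjusted p lay between 0.859 and 0.983. At an unadjusted p under 0.05, 4 of the 8 member probe sets tested read higher, beside 3.34% of all tested, and 0 read lower, beside 2.4%. The 4 were those of S100a8, S100a9, Camp and Anxa1, and Camp passed the filter on dim signals only through homozygous 1, so the count is no support. Among these 8, the groups did not overlap for 2 in the higher direction, beside 5.93% of all tested, and for 0 in the lower, beside 5.01%. At the probe set of highest mean, 7 of the 10 genes read higher in homozygous arrays and 3 lower, beside 51.7% of all genes higher. Mpo among the former and Elane and Mmp8 among the latter were dim and untested. The median log2 difference of the 10 genes was 0.30, against 0.01 over all genes, and it was 0.07 without homozygous 1. Groups did not overlap for 1 of the 10 genes, Anxa1, which was higher, beside 5.55% of all genes, and 0 genes were lower with no overlap, beside 4.78%. Of the 12 probe sets 8 passed the filter on dim signals, and Elane, Mpo, Mmp8 and the Anxa1 probe set 1444016_at did not and were not tested.

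**Figure D1:**
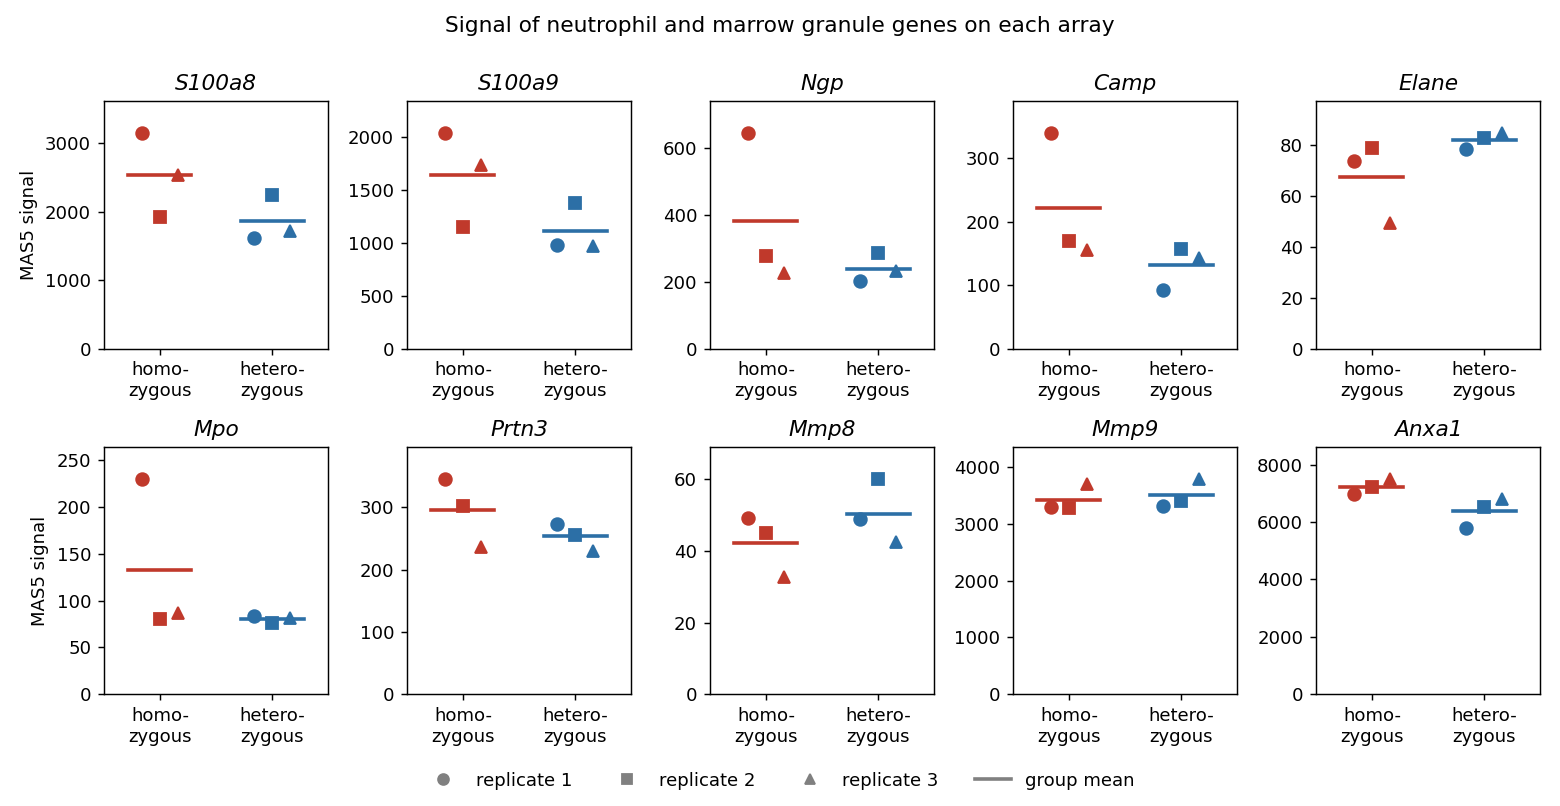
MAS5 signal (linear axis from 0) of the 10 genes at the probe set of highest mean, in 3 homozygous (red) and 3 heterozygous (blue) arrays, with the marker shape giving the replicate number and the bar the group mean. Homozygous 1 stands above every other array for Ngp, Camp and Mpo, and the groups do not overlap for Anxa1.

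Both calprotectin genes read higher on average in homozygous arrays, with overlap between the groups and no adjusted p under the threshold. S100a8 (probe set 1419394_s_at) read 3140.1, 1920.1 and 2539.2 in homozygous 1, 2 and 3, and 1618.9, 2237.0 and 1710.5 in heterozygous 1, 2 and 3. Homozygous 1 and 3 were the highest arrays, and homozygous 2 lay below heterozygous 2. The group means were 2533 ± 610.02 and 1855 ± 334 (SD over 3 arrays). On the log2 scale S100a8 differed by 0.43 ± 0.16 (SE), with a 95% interval from 0.06 to 0.79 and a limma adjusted p of 0.859. S100a9 (1448756_at), which encodes the partner subunit, read 2038.0, 1148.9 and 1739.5 in the homozygous arrays and 985.6, 1380.6 and 971.4 in the heterozygous ones. Its 4 highest arrays came in the same order as for S100a8: homozygous 1, homozygous 3, heterozygous 2, homozygous 2. The log2 difference of S100a9 was 0.53 ± 0.19, with an interval from 0.10 to 0.95 and a limma adjusted p of 0.859. Without homozygous 1 the differences were 0.26 for S100a8 and 0.35 for S100a9. Without heterozygous 1 they were 0.34 and 0.45, and without heterozygous 3 they were 0.38 and 0.44. With heterozygous 1 and 3 both left out they were 0.15 and 0.21, and without homozygous 3 they were 0.41 and 0.47. They rose to 0.61 and 0.76 without homozygous 2 and to 0.57 and 0.69 without heterozygous 2. Neither gene's groups overlapped in these last 2 settings, beside 9.82% and 11.2% of all genes higher with no overlap.

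The secondary granule genes Ngp and Camp read highest in 1 array, homozygous 1. Ngp (1418722_at), which encodes neutrophilic granule protein, a relative of the cathelicidins, read 644.0 in homozygous 1, 277.1 in homozygous 2 and 226.8 in homozygous 3. In heterozygous 1, 2 and 3 it read 202.1, 285.4 and 231.8. Homozygous 1 was 2.26 times the next array, and the other 5 arrays differed among themselves by at most 1.41-fold, with homozygous and heterozygous arrays mixed. The log2 difference of Ngp was 0.48 ± 0.29 (SE), with an interval from -0.16 to 1.12 and a limma adjusted p of 0.9002. Without homozygous 1 it was 0.07, and without homozygous 3 it was 0.75. Camp (1419691_at), the gene of the antimicrobial cathelicidin, read 339.5, 169.7 and 155.8 in the homozygous arrays and 92.5, 157.5 and 143.8 in the heterozygous ones. Homozygous 1 was again highest, at 2.00 times the next array, and the library labelled heterozygous 1 was lowest. The mean of Camp over the other 5 arrays was under the filter, so this ratio is a description only. The log2 difference of Camp was 0.57 ± 0.25, with a limma adjusted p of 0.869. It was 0.27 without homozygous 1, when the mean of Camp no longer passed the filter, and 0.39 without heterozygous 1. Without heterozygous 3 the difference was 0.46 for Ngp and 0.63 for Camp. With heterozygous 1 and 3 both left out the difference was 0.25 for Ngp and 0.34 for Camp.

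Among the primary granule genes, Mpo and Prtn3 read highest in homozygous 1 and Elane did not, and none passed the test. Mpo (1415960_at), which encodes myeloperoxidase, the enzyme that makes hypochlorous acid, read 229.9 in homozygous 1, and 80.9 and 86.8 in homozygous 2 and 3. The heterozygous arrays read 83.6, 76.6 and 81.2. Homozygous 1 stood above the other 5 arrays, whose signals were under the filter and not shown to be above background, so no fold is given. The log2 difference of Mpo, a description with no test, was 0.42, and 0.04 without homozygous 1. It was 0.44 without heterozygous 1, 0.42 without heterozygous 3 and 0.46, with no overlap, without both. Leaving out both keeps a lone heterozygous array, and 26.1% of all genes were then higher with no overlap. Prtn3 (1419669_at), the gene of proteinase 3, read 345.9, 303.1 and 236.8 in homozygous and 274.1, 256.3 and 230.3 in heterozygous arrays. Homozygous 1 was highest here too, by 1.14 times the next array, and the groups overlapped. Its log2 difference was 0.18 ± 0.14 with an interval from -0.14 to 0.50 and a limma adjusted p of 0.911, and it was 0.07 without homozygous 1. For Prtn3 it was 0.23 without heterozygous 1, 0.12 without heterozygous 3 and 0.17 without both, and 0.31 without homozygous 3. Elane (1422928_at), the gene of neutrophil elastase and the neighbour of Prtn3, read 73.7, 78.6 and 49.4 in homozygous and 78.3, 82.5 and 84.5 in heterozygous arrays. Its log2 difference was -0.20, and homozygous 1 read below 4 of the other 5 arrays. Its groups overlapped as deposited. They did not overlap, in the lower direction, after quantile normalization or a shift to a common median, or without homozygous 2 (-0.28), heterozygous 1 (-0.22) or heterozygous 1 and 3 (-0.21). The last of these settings keeps a lone heterozygous array. As deposited, 4.78% of all genes were lower with no overlap, and the shares lower under the other settings are not given here. In the higher direction the share of all genes went from 5.55% to 9.82% without homozygous 2 and 11.5% without heterozygous 1. The lack of overlap for Elane therefore says little. The difference was -0.18 without heterozygous 3 and -0.07 without homozygous 3. Elane was under the filter, so these are descriptions of dim signals.

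Neither metalloproteinase gene passed the test, and Mmp8 was too dim to be tested. Mmp8 (1449366_at), neutrophil collagenase, was dim, at 49.1, 45.0 and 32.7 in homozygous and 48.8, 60.1 and 42.4 in heterozygous arrays, a log2 difference of -0.14. It was -0.15 without heterozygous 1, -0.20 without heterozygous 3 and -0.29, with no overlap, without both. Leaving out both keeps a lone heterozygous array, so the lack of overlap there says little. Mmp9, gelatinase B, was bright at both of its probe sets, which gave opposite signs. At 1416298_at it read 3295.3, 3287.6 and 3697.8 in homozygous and 3318.5, 3404.7 and 3792.1 in heterozygous arrays, with overlap and a log2 difference of -0.03 ± 0.08 (SE). At 1448291_at it read 3349.3, 3540.9 and 3606.3 against 3121.2, 3305.6 and 3208.7, with every homozygous array above every heterozygous one and a difference of 0.12 ± 0.07. The 95% intervals ran from -0.20 to 0.14 and from -0.02 to 0.27, and the limma adjusted p values were 0.983 and 0.893. Arrays shifted to a common median overlapped at 1448291_at as well. Without heterozygous 1, without heterozygous 3 and without both, 1448291_at differed by 0.10, 0.12 and 0.08 and 1416298_at by -0.07, 0.03 and 0.0071. Homozygous 1, high for Ngp, Camp and Mpo, was the lowest or second lowest homozygous array at both probe sets of Mmp9. The part of bone, whose genes were bright on every array, in the Mmp9 signal was not tested.

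Anxa1 was the brightest member and the only 1 of the 10 genes whose groups did not overlap at the probe set of highest mean. At 1448213_at it read 6985.1, 7216.8 and 7502.4 in homozygous and 5780.3, 6526.8 and 6800.6 in heterozygous arrays. Homozygous 3 was highest and the library labelled heterozygous 1 lowest, so the order differs from that of Ngp, Camp and Mpo. The log2 difference was 0.19 ± 0.07 (SE), with an interval from 0.03 to 0.34 and a limma adjusted p of 0.859. It was 0.12 without heterozygous 1, 0.23 without heterozygous 3, 0.21 without homozygous 1 and 0.15 without heterozygous 1 and 3, and the groups did not overlap in any of these. The last setting keeps a lone heterozygous array, and 26.1% of all genes were then higher with no overlap. The other probe set, 1444016_at, read 4.0 to 25.3, under the offset added before the log, and its difference of 0.05 is not interpretable. The 5 other genes with the most similar profile to Anxa1, out of 11419 compared, were Setd2, Sema5a, Fxr1, Zfp397 and Dnajc1. Their centred log2 profiles over 6 arrays differed from it by 0.023 to 0.035 on average, where the median gene differed by 0.14.

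**Figure D2:**
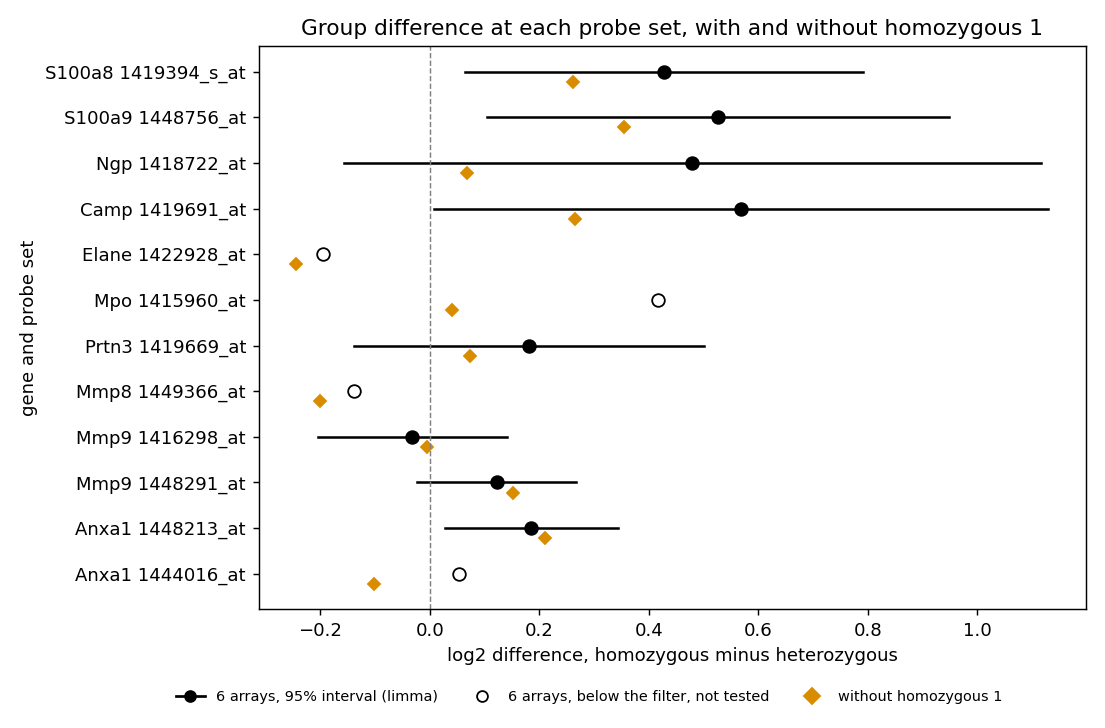
Log2 difference (homozygous minus heterozygous) at the 12 probe sets: filled circles with 95% intervals from limma for those tested, open circles for those under the filter, and orange diamonds for the value without homozygous 1. The difference goes from 0.48 to 0.07 for Ngp and from 0.42 to 0.04 for Mpo, and stays near 0.2 for Anxa1 at 1448213_at.

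Of the 10 members, 5 varied among arrays more than nearly all genes tested. The SD of log2 signal over the 6 arrays was 0.55 for Ngp, 0.50 for Camp, 0.47 for Mpo, 0.43 for S100a9 and 0.36 for S100a8, while the median gene tested had 0.12. These values lay at or above 98.3% of the 11426 genes tested. Mpo, being dim, was itself not among them, and Camp was only through homozygous 1. The highest array was 3.19 times the lowest for Ngp and 3.67 times for Camp, and 1.41 and 1.83 times without homozygous 1. For S100a9 this ratio went from 2.10 to 1.79 and for S100a8 from 1.94 to 1.57. The members were chosen with earlier results of these data known, so these ranks are descriptions only. Prtn3 lay at the 83.5th percentile, Anxa1 at the 56th and Mmp9 at the 26.5th. Homozygous 1 was the highest array for 6 of the 10 genes, S100a8, S100a9, Ngp, Camp, Mpo and Prtn3, beside 16.4% of all genes. The library labelled heterozygous 1 was the lowest for 4, S100a8, Ngp, Camp and Anxa1, beside 18.3% of all genes.

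The height of homozygous 1 was then compared across genes, with this array and a ratio of 1.5 chosen after the values were seen. So that homozygous 1 could not carry a gene through the filter, the genes were those whose mean over the other 5 arrays reached the median. Of these 11418 genes, 6 read at least 1.5 times the highest other array in homozygous 1, which is 0.0525%. In order of their log2 gap these were Slc4a1, Ngp, Alas2, Epg5, Dlx6 and E2f2. Slc4a1, the anion exchanger of red cells, read 945.0 in homozygous 1 and 136.0 to 288.8 elsewhere. Alas2, the haem synthesis enzyme of red cell precursors, read 616.1 and 169.1 to 344.5, and E2f2, a cell cycle regulator, 467.6 and 243.2 to 300.0. Ngp is the 1 member among the 6, of 6 members that this filter kept, and Slc4a1 and Alas2 are from the erythroid list. Camp was not kept, since it passes only with homozygous 1 in the mean. The same count was 3 in homozygous 2, 8 in homozygous 3, 7 in heterozygous 1, 6 in heterozygous 2 and 49 in heterozygous 3, with 0 members in each of these 5 arrays. With dim genes included, 285 of 18193 genes, or 1.57%, passed in homozygous 1, Ngp, Camp and Mpo among them.

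**Figure D3:**
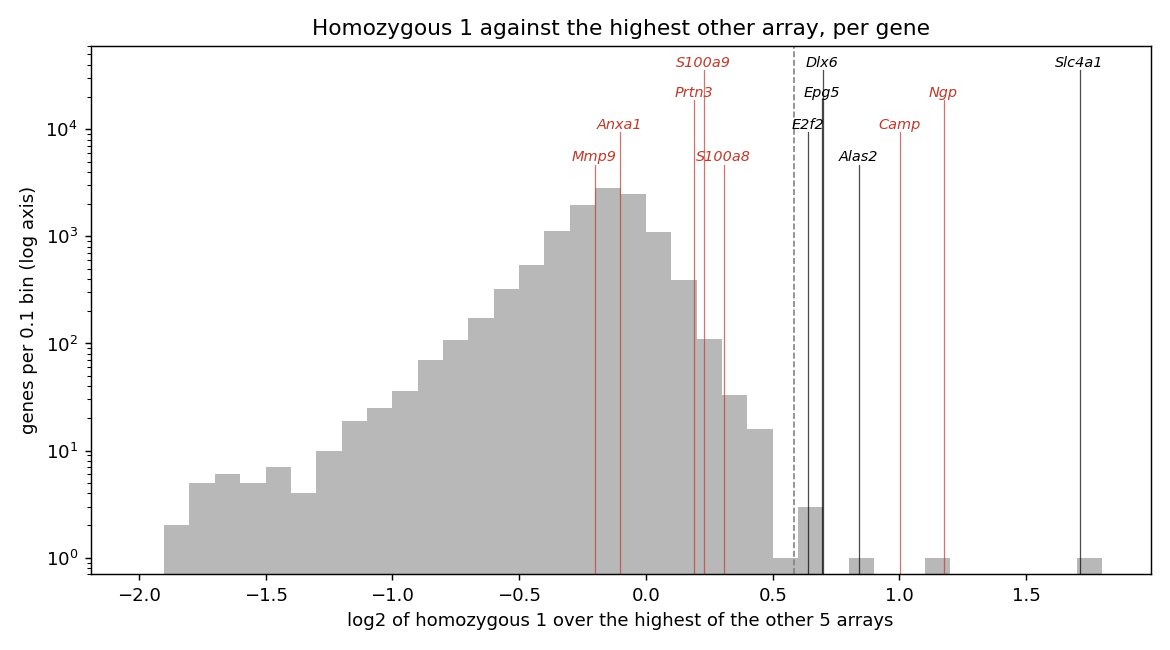
Distribution of log2 of the signal in homozygous 1 over the highest of the other 5 arrays, over the 11418 genes kept by their mean on those 5 (log count axis, bins of 0.1, values under -2 not drawn), with the members in red, the other genes past the dashed line (1.5-fold) in black, and the dim members Elane, Mpo and Mmp8 left out. Ngp lies at 2.26 times the highest other array, Camp, drawn although this filter did not keep it, at 2.00 times, and Slc4a1 at 3.27 times.

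Markers of red cells also read highest in homozygous 1. Of 15 erythroid genes listed 9 were measured and 5 tested, of which 0 passed adjustment. Homozygous 1 was the highest array for 8 of the 9. The summed signal of the list was 7341.9 to 10667.7 in homozygous and 6800.2 to 7246.7 in heterozygous arrays, most of it from Car2 and Tfrc, which other tissues express too. Car1 read 140.6 in homozygous 1 and 8.1 to 51.7 elsewhere, and Hbb-b2, whose probes may also read its near-identical globin neighbours, 248.5 and 114.8 to 209.6. Of 10 measured genes of B cells and their marrow precursors, homozygous 1 was the highest array for 2 and homozygous 3 for 4. The 2 were the dim Cd79a, at 62.0 beside 25.7 to 50, and Cd79b, at 105.5 beside 44.7 to 67.1. Vpreb3 read 230.4 in homozygous 1 and 151.5 to 255.5 elsewhere and Igll1 49.6 and 62.1 to 87.0, and 0 of the 2 genes tested passed. That list's sum was 4182.0 to 4982.6 in homozygous and 4109.9 to 4673.4 in heterozygous arrays, nearly all from Ebf1. The part of red cells, marrow or other cell types in the members' signals was not tested.

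Other granule genes were often highest in another array. Of 10 further secondary and tertiary granule genes 9 were measured, 5 were tested and 0 passed. Homozygous 3 was the highest array for 4 of the 9, beside 14% of all genes. Homozygous 1 was the highest for 1, the dim Fcnb, at 77.6 beside 15.5 to 53.1 elsewhere. Lcn2, the iron-carrier binding protein lipocalin 2, which gland epithelium also makes, read 4932.0 in homozygous 3 and 1178.7 to 2631.9 elsewhere. Ltf, lactoferrin, read 8209.6 in homozygous 3 and 4908.5 to 6484.0 elsewhere, and Cd177 481.6 and 172.5 to 279.3. The part of gland epithelium in the signals of this list was not tested. Hp, haptoglobin, read 191.7, 246.1 and 239.8 in homozygous and 187.6, 128.9 and 157.2 in heterozygous arrays, with no overlap, beside 5.55% of all genes. Its log2 difference was 0.43 ± 0.16 (SE) with a limma adjusted p of 0.859. Among 4 measured of 6 further primary granule genes 2 were tested and 0 passed. Srgn, the proteoglycan that packs granule proteins, differed by 0.31 and Ctsc, which activates the serine proteases, by -0.0029. Ctsg, cathepsin G, was dim and read 79.5 in homozygous 1 and 27.6 to 59.8 elsewhere.

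Genes of mature neutrophils, most of them receptors or surface proteins, were mostly dim and mostly higher in homozygous arrays. Of 18 listed 15 were measured, and 14 of these read higher and 1 lower, beside 51.7% of all genes higher. Only Itgb2 and Alox5ap passed the filter, and 0 passed the test. Itgb2, the shared chain of the leukocyte integrins, read 304.2, 254.8 and 275.9 against 247.1, 200.1 and 199.4, with no overlap. Its log2 difference was 0.32 ± 0.13 (SE) with a limma adjusted p of 0.859. Alox5ap, of the leukotriene pathway, differed by 0.27 ± 0.13 with no overlap. Of all genes, 5.55% were higher with no overlap. The summed signal of the list was 1467.9 to 1597.2 in homozygous and 1070.3 to 1183.7 in heterozygous arrays. The part of macrophages in this list's signals was not tested. Cxcr2, a chemokine receptor of neutrophils, read 6.1 to 13.2 over all arrays, below the offset, and Csf3r 112.5 to 175.2. Homozygous 1 was the highest array for 3 of the 15 and homozygous 3 for 7, beside 16.4% and 14% of all genes. Most of these ranks rest on dim signals.

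Among genes of the oxidase and the factors of granulocyte formation 0 passed the test. All 5 measured subunits of the phagocyte NADPH oxidase, which makes superoxide, read higher in homozygous arrays, beside 51.7% of all genes. Of these 4 were tested and 0 passed. Rac2 differed by 0.31 ± 0.14 (SE) and Cyba by 0.25 ± 0.11. Macrophages express the oxidase too, and of their own list of 12 genes 10 were higher, beside 51.7% of all genes, and 0 passed. The summed signal of that list was 11497.5 to 12224.3 in homozygous and 10699.7 to 11216.8 in heterozygous arrays. The brightest, Csf1r and Lgmn, differed by 0.05 and 0.04, and Cd68 and Cd14, those of lowest p, by 0.22 and 0.28. Among transcription factors 6 of 7 were measured, 5 tested and 0 passed, with Myb at 0.09, Runx1 at 0.15 and Cebpa at -0.13. Cebpe was not among the measured genes, so the factor of the secondary granule stage was not analysed here.

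Attractants, inhibitors and receptors of the members' proteins were set beside them. Of 6 neutrophil attractants 2 were tested and 0 passed. Cxcl5 read 452.2, 359.0 and 572.6 in homozygous and 305.5, 340.9 and 238.1 in heterozygous arrays, and Cxcl1 differed by 0.21 ± 0.11 (SE). Homozygous 3 was the highest array for 5 of the 6 attractants, beside 14% of all genes. Of these only Cxcl5 and Cxcl1 passed the filter, and the ranks of the others rest on dim signals. Of 9 measured protease inhibitors 7 were tested and 0 passed. Timp1, Timp2 and Reck, which inhibit the metalloproteinases, differed by 0.03, -0.02 and 0.09, and Serpina3n read 1926.2 in homozygous 3 and 390.3 to 761.7 elsewhere. The receptors Tlr4, which binds calprotectin, and Bsg differed by 0.18 and 0.07. None of the tests in these lists passed adjustment in limma.

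Other S100, annexin and metalloproteinase genes were compared in the same way, and none passed. Of 11 measured further S100 genes 9 were tested, with 4 higher, 5 lower and 0 passing, beside 49.8% of genes tested higher. S100a5, an olfactory neuron gene, differed by -0.13 with no overlap, beside 4.78% of all genes lower with no overlap. S100a6 differed by 0.0028 and S100a13 by 0.07, and the median over the tested genes was -0.01. Of 10 measured further annexins 7 were tested, with 3 higher, 4 lower and 0 passing. Anxa2 and Anxa5, the brightest, differed by 0.0037 and -0.0011. Those of lowest p were Anxa8, at 0.18, and Anxa4, at -0.14 with no overlap (again beside 4.78% of all genes), where Anxa1 differed by 0.19. Of 13 measured further metalloproteinase genes 6 were tested and 0 passed, with Mmp13 at -0.03, Mmp14 at 0.10 and Mmp16 at 0.14. Surface epithelium, another source of S100a8, S100a9 and Anxa1, had 3 of 10 markers higher, beside 51.7% of all genes. Its summed signal was 2908.1 to 3199.8 in homozygous and 2790.7 to 3388.1 in heterozygous arrays. Sprr1a, of the cornified envelope, read 355.0, 267.2 and 402.3 in homozygous and 277.0, 346.3 and 191.9 in heterozygous arrays, a difference of 0.31 with overlap. Krt5 differed by 0.05, Trp63 by -0.14 and Foxj1 by -0.13, 0 of the 5 tested passed, and Krt13 read 6.2 to 22.1, below the offset. The part of this epithelium in the members' signals was not tested.

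**Figure D4:**
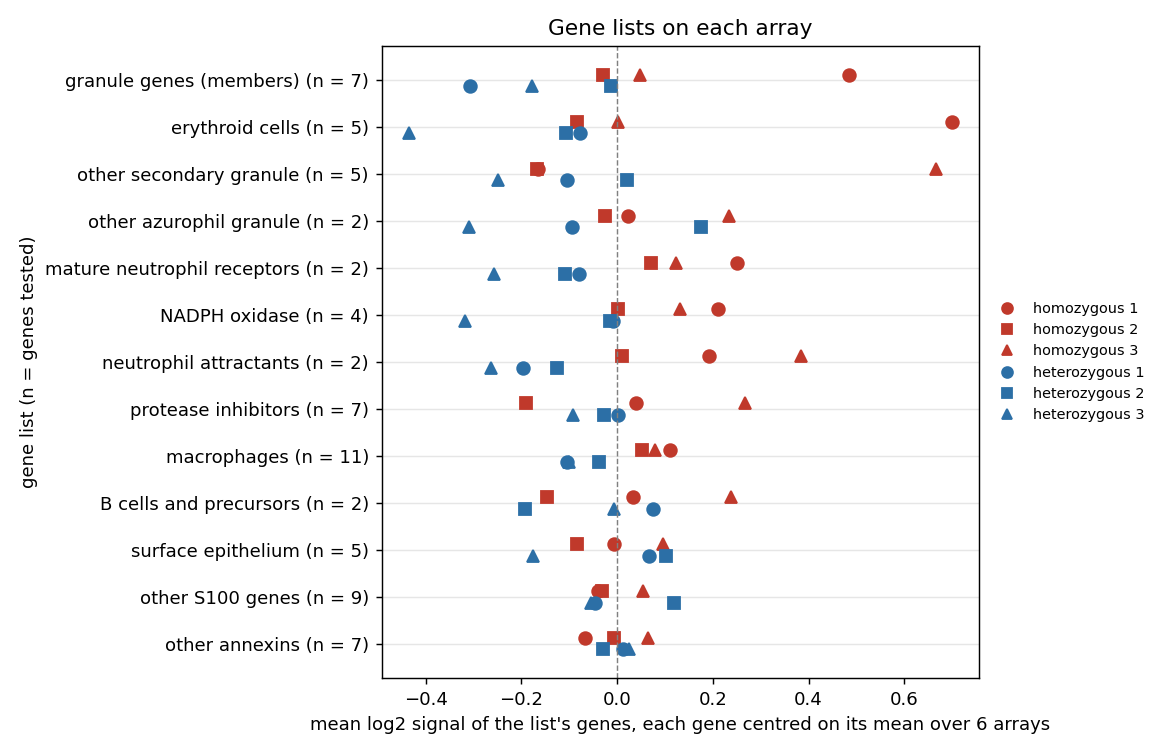
Mean log2 signal of each gene list per array, every gene centred on its own mean over the 6 arrays, for the genes tested in each list, with red for homozygous and blue for heterozygous arrays and marker shape for replicate number. Homozygous 1 is the highest array for the 7 granule genes tested, at 0.48 (Camp among them only through that array), and for erythroid genes, at 0.70, while homozygous 3 is the highest for the other secondary granule genes, at 0.67.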

How the data were processed

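RNA of 6 olfactory epithelium samples, 3 per group by title, was hybridised to Affymetrix mouse 430 2.0 arrays after one-cycle target labelling, per the labels' protocols. The deposited intensity values are linear MAS5 signals per probe set, per the submitters' processing notes, and the labels name neither its version nor its parameters. Their 2% trimmed mean was 500.002 on every array, so no further scaling was applied. Detection calls were not used. The platform annotation named 1 gene for 34958 probe sets.

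Signals were analysed as log2(signal + 38.8), adding the pooled 25th percentile. Of the probe sets, those with a mean at or above the median were tested, leaving out 64 controls. The test was limma's (version 3.58.1, under R 4.3.3; lmFit, eBayes with an intensity trend, two-sided) and Benjamini-Hochberg adjustment at 0.05. The number of arrays limits the precision: the median SE was 0.11. The members and lists were chosen with earlier results of these data known. Named were all members, and from each companion list the 2 brightest genes and the 2 of lowest p. Genes outside that rule (Slc4a1, Epg5, Dlx6, E2f2, Car1, Cd79a, Cd79b, Igll1, Ctsg, Fcnb, Cxcr2, Csf3r, Krt13, Ibsp, Dmp1, Omp, Rbfox3 and the eosinophil and mast cell genes) were added after their values were seen. In the comparison of homozygous 1 with each other array, the filter used the other 5 arrays, a choice made after the data were seen. Alternatives were other offsets, scalings, filters and variance models, a replicate block and arrays left out. Promoter windows came from RefSeq on GRCm38.p6; no build is given for the array values.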

Additional observations from a re-analysis of the deposited data

How the results depend on the processing

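The count of probe sets passing adjustment in limma was 0 over all arrays. It was 1 with the offset at the pooled median and 27 without the libraries labelled heterozygous 1 and 3, where the lone heterozygous array is assumed to vary like the others. With single arrays left out it ran from 0 to 25, the highest without heterozygous 1. No member was among those called in any of these settings, the members' lowest adjusted p being 0.396. The cause of the other counts was not tested. The replicate block gave 0 probe sets, and arrays of the same number did not deviate together (correlations of 0.02, -0.12 and -0.05), so the numbers were not taken as pairs. The median difference of the members ran from 0.07, without homozygous 1, to 0.40, without homozygous 2. The number of member genes higher with no overlap was 1 over all arrays and 1 to 4 with single arrays left out (4 without homozygous 2 and without heterozygous 2, 3 without homozygous 3, beside 9.82%, 11.2% and 11.4% of all genes). It was 3 without heterozygous 1 and 3 together, where 26.1% of all genes did so, and 0 when a gene's probe sets were averaged. Mmp9 at 1416298_at ran from -0.087 to 0.025 with single arrays left out, changing sign without heterozygous 3, and was 0.0071 without heterozygous 1 and 3. The other tested member probe sets kept their direction in every setting that tested them; Camp was under the filter without homozygous 1. The signals of Elane, Mpo, Mmp8 and 1444016_at were under the filter and not shown to be above background, so their differences are descriptions only. With the filter on all 6 arrays, chosen after seeing the data as an alternative, 7 genes in place of 6 reached 1.5 times every other array in homozygous 1, Camp being added.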

Other observations

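Genes of eosinophils and mast cells, which also arise from marrow precursors, were dim, and 0 of 9 measured passed the filter. Their summed signal was 284.3 to 453.4 in homozygous and 218.1 to 287.0 in heterozygous arrays. Homozygous 1 was the highest array for 3 of the 9, Prg2, Epx and Cpa3, homozygous 2 also for 3, and homozygous 3, heterozygous 1 and heterozygous 2 for 1 each. Prg2, the gene of the major basic protein of eosinophil granules, read 204.9 in homozygous 1 and 68.9 to 89.8 on the other 5 arrays. Epx, eosinophil peroxidase, read 81.4 in homozygous 1 and 5.2 to 32.0 elsewhere, below the offset. Epx was picked after its values were seen. Mcpt8 was highest in homozygous 3, at 41.8, Cma1 in heterozygous 2, at 56.2, and Ccr3 in heterozygous 1, at 43.4. Siglecf, a surface receptor of mature eosinophils, read 33.8 to 37.5 on all arrays.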
